A study of Mus musculus with 16 samples.

Results

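The genes of the proteasome were followed in the hearts of 16 mice. Members were chosen by name: symbols made of Psm, a letter from a to g and a number, read from probe sets with a single gene symbol and averaged per gene. The rule took in 49 of the 22180 genes measured. It gives 7 genes of the alpha ring and 7 of the constitutive beta ring of the 20S core, and 4 beta subunits of the immunoproteasome and thymoproteasome. The 19S regulatory particle is covered by 6 ATPases, 11 other subunits and 3 assembly chaperones. The remaining members are 5 activators and inhibitors and 4 assembly chaperones of the core. The rule also takes in 2 genes whose names carry such a symbol but which encode no proteasome subunit, Psmc3ip and Psme3ip1. Psma4 is not among the members, because its probe sets also carry the symbol of another gene.

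Hearts came from C57Bl/6J mice, either wild type (WT) or homozygous for the delta 19 allele of Clock (called Clock mice here), and each genotype ate standard chow (chow) or a high-fat diet (HFD) for 24 weeks. Each of the 4 groups held 4 mice, aged 32 weeks, and every heart was taken 7 hours after lights on, so nothing can be said of other times of day. Transgenic is the word the labels use for the Clock mice, which carry the allele in all tissues and not in the heart alone. The design asks how the mutation and the diet each bear on heart transcripts, and whether one alters the other. Each heart was read on 1 Affymetrix array. All values below are log2 differences from the gene's own median over the 16 hearts, so hearts can be compared but levels of different genes cannot, and the myocardium label could not be checked against marker levels. The sign was taken as positive for higher expression. The whole heart muscle was sampled, so fewer cells of a type and less RNA per cell cannot be told apart.

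The proteasome is the large protease that degrades proteins tagged with ubiquitin. Its 20S core is a barrel of alpha and beta rings with the catalytic sites inside, and the 19S particle caps the barrel, binds ubiquitin, unfolds the substrate with a ring of ATPases and feeds it in. In cells exposed to interferon the catalytic beta subunits are replaced by those of the immunoproteasome, which together with the PA28 activator favours peptides for presentation on MHC class I. In heart muscle, which renews its contractile proteins slowly, the proteasome carries much of their quality control.

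Some hearts stood apart from their group and touch the results below. WT chow heart 2 had a mean of 1.22 over 14 interferon-induced genes, against -0.27 to 0.19 in the other 15 hearts. WT chow heart 4 had 0.37 for Dbp, a gene driven by CLOCK, against 1.71 to 2.29 in the other WT chow hearts, 1.86 to 2.45 in the WT HFD hearts and -0.62 to -0.37 in the Clock hearts. Clock itself was at 0.17 in that heart and from -0.54 to -0.10 in the other WT hearts, while the Clock mice had -0.01 to 0.13. The delta 19 allele still gives a transcript, so the level of Clock does not check the genotype labels.

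The test was a moderated fit with limma over all 22180 genes, with Benjamini-Hochberg adjustment over all of them and an adjusted p under 0.05 as the threshold. An error after ± is the fit's standard error unless it is called SD, and every group has n = 4. Of the 49 members, 4 passed in at least 1 of the 7 comparisons: Psmc4, Psmd7, Psmb1 and Psme1. In the comparison of Clock with WT hearts on HFD, 1 member passed (2.04%), where 1.9% of all genes did. With genotype averaged over the diets 2 members passed (4.08%), against 3.88% of all genes, and with diet averaged over the genotypes 2 passed (4.08%), against 1.54%. No member passed for Clock against WT on chow (0.491% of all genes), for HFD against chow in WT hearts (0.352%), for HFD against chow in Clock hearts (0.0902%) or for the interaction of genotype and diet (0% of all genes). At an unadjusted p under 0.05 these last 4 comparisons gave 2 members (4.08%, all genes 9.77%), 9 (18.4%, all genes 10.7%), 11 (22.4%, all genes 8.42%) and 1 (2.04%, all genes 5.06%). At the adjusted threshold the proteasome genes as a family were therefore called about as often as other genes for the genotype. At an unadjusted p under 0.05, Clock against WT on HFD gave 12 members with Clock higher (24.5%, all genes 7.6%) and 1 with Clock lower (all genes 5.87%). The differences were small: most lay under 0.3 on the log2 scale, next to a median SD within groups of 0.10, which is also that of all genes.

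**Figure D1:**
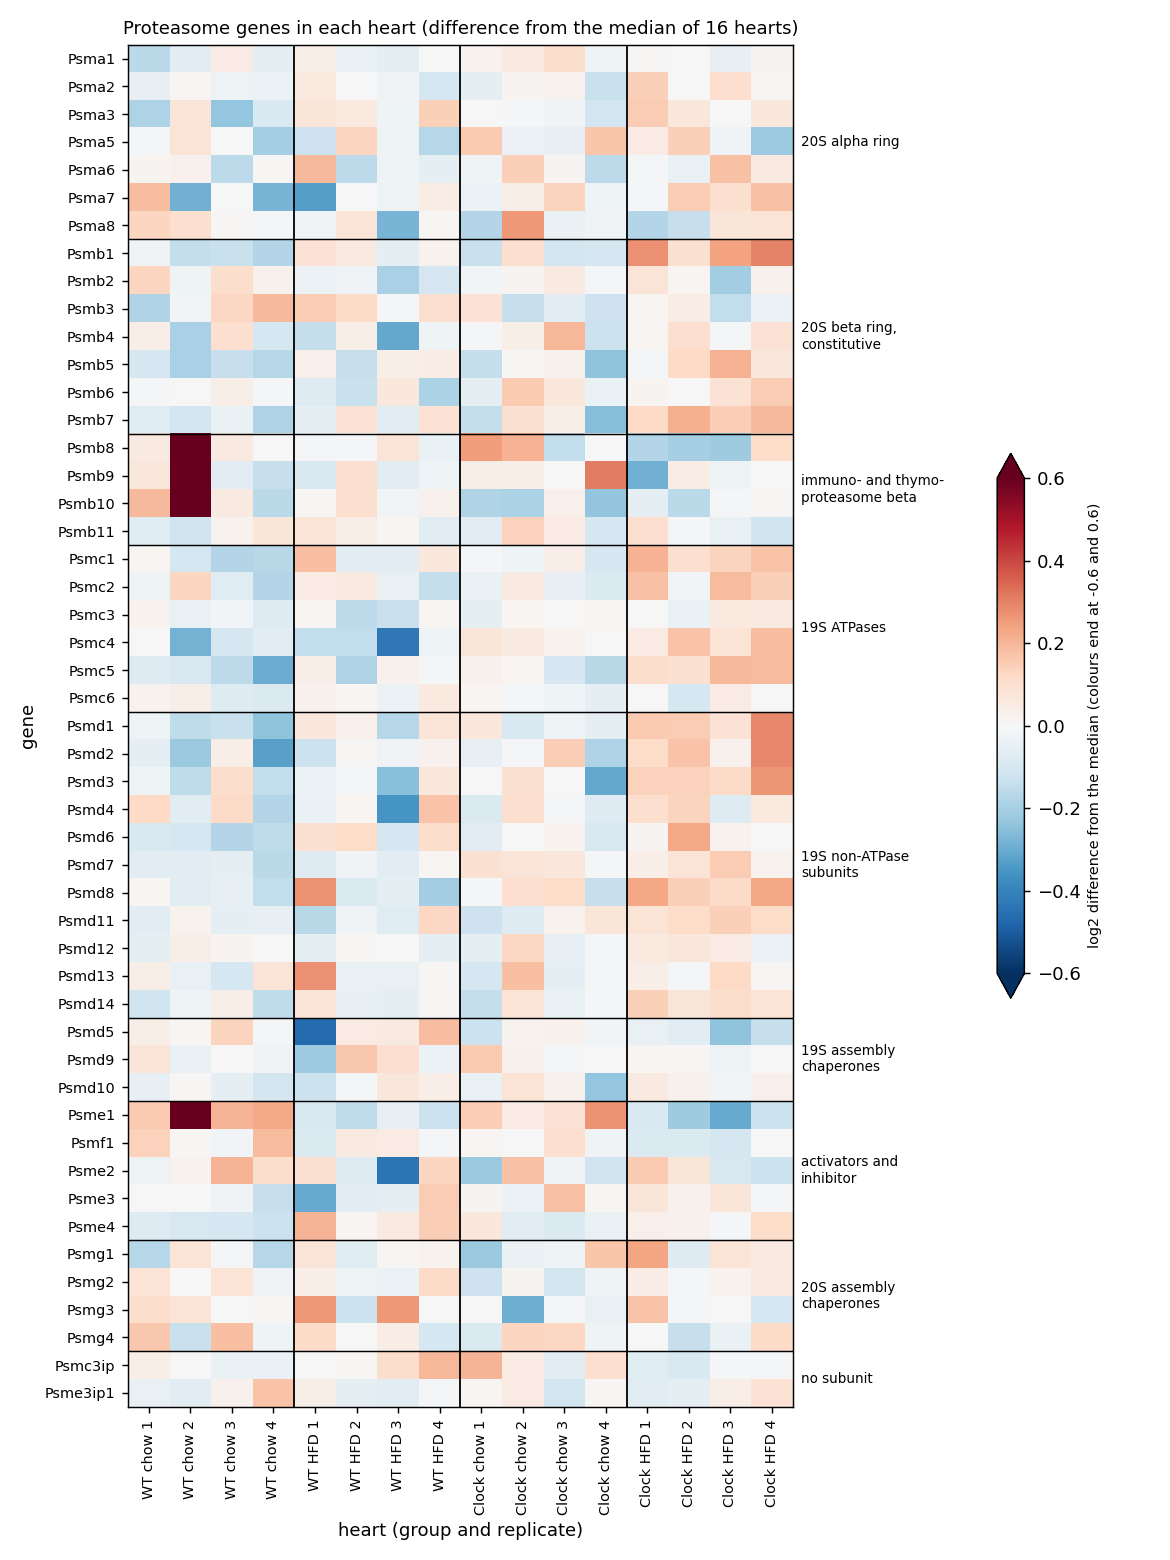
Each row is 1 of the 49 genes, grouped by class, and each column is 1 heart, grouped by genotype and diet; colour gives the log2 difference from the gene's median over the 16 hearts and ends at -0.6 and 0.6. The dark cells of WT chow heart 2 are Psmb8, Psmb9, Psmb10 and Psme1, and the Clock HFD columns are mostly warm in the 19S rows.

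In the constitutive 20S core, Psmb1 was the member that passed. It encodes a non-catalytic subunit of the beta ring. Its values were -0.02, -0.14, -0.14 and -0.18 in WT chow hearts, 0.09, 0.05, -0.06 and 0.02 in WT HFD hearts, -0.13, 0.10, -0.11 and -0.10 in Clock chow hearts, and 0.27, 0.09, 0.24 and 0.30 in Clock HFD hearts. Chow hearts were low and Clock HFD hearts highest, with 1 Clock chow heart reaching among the HFD hearts, so that the chow and HFD hearts overlapped. Averaged over the genotypes Psmb1 rose with HFD by 0.22 ± 0.04, a 1.16-fold difference (limma, adjusted p = 0.0193). Within Clock hearts the difference was 0.29 ± 0.06 (limma, adjusted p = 0.0873) and within WT hearts 0.15 ± 0.06 (limma, adjusted p = 0.382), and the interaction was 0.14 ± 0.09 (limma, adjusted p = 0.982). Without WT chow hearts 2 and 4 together the averaged difference was 0.20 (limma, adjusted p = 0.0957), which misses the threshold.

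The catalytic subunits of the core did not pass in any comparison. Psmb5 carries the chymotrypsin-like site, Psmb6 the caspase-like site and Psmb7 the trypsin-like site. For Psmb7 the WT chow hearts had -0.07, -0.11, -0.04 and -0.18, the WT HFD hearts -0.06, 0.09, -0.07 and 0.09, the Clock chow hearts -0.14, 0.09, 0.04 and -0.26, and the Clock HFD hearts 0.12, 0.21, 0.15 and 0.20. All 4 Clock HFD hearts lay above the other 12, a pattern that was not counted over all genes. The difference between HFD and chow in Clock hearts was 0.24 ± 0.07 (limma, adjusted p = 0.269), and that between Clock and WT on HFD was 0.16 ± 0.07 (limma, adjusted p = 0.315). Psmb5 differed by 0.17 ± 0.04 between the diets averaged over the genotypes (limma, adjusted p = 0.0789), with values from -0.24 to 0.03 on chow and from -0.14 to 0.21 on HFD. Psmb6 gave 0.15 ± 0.06 for Clock against WT on HFD and did not pass (limma, adjusted p = 0.261). Psmb2, Psmb3 and Psmb4, structural members of the same ring, gave differences between -0.15 and 0.16 in the 4 comparisons of 2 groups.

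The alpha ring, whose subunits form the gate of the barrel, held no member that passed. The 7 genes had differences from -0.05 to 0.12 for Clock against WT on chow and from 0.01 to 0.18 on HFD. HFD hearts differed from chow hearts by -0.11 to 0.17 in WT mice and by -0.07 to 0.10 in Clock mice. Psma3 had the largest diet difference in WT hearts, 0.17 ± 0.06 (limma, adjusted p = 0.291). Psma7 gave 0.18 ± 0.10 for Clock against WT on HFD (limma, adjusted p = 0.449), with 1 WT HFD heart at -0.33 and the other WT HFD hearts between -0.03 and 0.04. Psma8, which replaces Psma7 in the testis proteasome, gave differences between -0.11 and 0.01. The 14 constitutive genes of the core had a median difference of 0.05 for Clock against WT on chow, 0.07 on HFD, 0.02 for HFD against chow in WT hearts and 0.04 in Clock hearts. The median of all genes lay between -0.0022 and 0.0003 in these 4 comparisons. Psma1 and Psma2 gave 0.10 ± 0.05 each, Psma1 for Clock against WT on chow and Psma2 for HFD against chow in Clock hearts (limma, adjusted p = 0.525 and 0.606).

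The immunoproteasome subunits Psmb8, Psmb9 and Psmb10 had their highest values in 1 heart. Psmb8, Psmb9 and Psmb10 take the places of Psmb5, Psmb6 and Psmb7 when interferon induces them, and Psme1 encodes the alpha subunit of the PA28 activator. Sequences at or before their starts are printed here because these 4 genes moved together in that heart. They are the 250 bases before the start of Psmb8 (chr17:34197945-34198194, plus strand), Psmb9 (chr17:34187331-34187580, minus strand) and Psmb10 (chr8:105938393-105938642, minus strand), and 30 bases of Psme1 that begin at the last base before its start (chr14:55578493-55578522, plus strand), all from RefSeq on GRCm38.p6. Capitals mark a match to 1 of 3 motifs searched on both strands: the interferon-stimulated response element (GAAA, any 2 bases, GAAA), the gamma-activated site TTCNNNGAA and the E-box CACGTG, the element bound by CLOCK and BMAL1.
Psmb8: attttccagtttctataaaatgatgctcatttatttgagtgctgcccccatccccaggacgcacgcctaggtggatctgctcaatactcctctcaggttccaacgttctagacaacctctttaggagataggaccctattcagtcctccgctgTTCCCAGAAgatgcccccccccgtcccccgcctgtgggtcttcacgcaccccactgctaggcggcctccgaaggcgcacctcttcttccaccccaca
Psmb9: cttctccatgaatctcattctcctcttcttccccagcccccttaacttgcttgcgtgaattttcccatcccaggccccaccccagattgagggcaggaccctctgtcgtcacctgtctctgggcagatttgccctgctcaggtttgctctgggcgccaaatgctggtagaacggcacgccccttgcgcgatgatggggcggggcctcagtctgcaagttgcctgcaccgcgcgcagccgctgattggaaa
Psmb10: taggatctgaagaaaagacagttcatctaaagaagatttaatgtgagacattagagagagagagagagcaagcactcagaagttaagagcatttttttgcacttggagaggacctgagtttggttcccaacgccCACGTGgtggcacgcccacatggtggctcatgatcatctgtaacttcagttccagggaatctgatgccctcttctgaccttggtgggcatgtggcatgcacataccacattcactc
Psme1: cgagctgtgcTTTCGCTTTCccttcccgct

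The Psme1 stretch holds the reverse complement of the response element at bases 10 to 19 after the start. It was picked for that match, and the 250 bases before the start of Psme1, not printed, hold none of the 3 motifs. Psmb8 holds a gamma-activated site and Psmb10 an E-box, and none of the 3 motifs lies in the Psmb9 window shown. Windows of 300 bases around the start were found for 41 of the 49 members, as 45 windows. The response element lies in 5 of the 45 (11.1%; Psmb3, Psmd4, Psmd9, Psme1 and Psmg4), against 3.44% of 32851 windows of all genes. The gamma-activated site lies in 3 (6.67%; Psmb8, Psmd2 and Psmg1), against 8.3%, and the E-box in 4 (8.89%; Psmb10, Psmd9, Psme3 and Psme3ip1), against 7.15%. Each stretch shown holds at most 1 match. A match of letters is no evidence of binding.

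Psmb8 was at 0.05, 1.35, 0.06 and -0.00 in the WT chow hearts, and its highest value in the other 15 hearts was 0.25. Psmb9 was at 0.07, 0.81, -0.06 and -0.14 there, with a highest value elsewhere of 0.31, and Psmb10 at 0.19, 1.53, 0.06 and -0.16, with a highest value elsewhere of 0.19. WT chow heart 2 thus held the highest value of all 3, and of no other member but Psme1. In the WT HFD hearts Psmb8 ranged from -0.04 to 0.08, Psmb9 from -0.09 to 0.10 and Psmb10 from -0.01 to 0.10. In the Clock chow hearts the ranges were -0.15 to 0.25, 0.00 to 0.31 and -0.24 to 0.03. In the Clock HFD hearts they were -0.21 to 0.11, -0.29 to 0.05 and -0.16 to 0.01. None of the 3 passed in any comparison.

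For Clock against WT on HFD, which leaves out the WT chow hearts, the differences of the 3 lay between -0.13 and -0.05. For HFD against chow in Clock hearts, which also leaves them out, they lay between -0.20 and 0.09, with 2 below 0. In the comparisons that use WT chow hearts the differences depended on WT chow heart 2. For Clock against WT on chow, Psmb10 was at -0.55 ± 0.24 (limma, adjusted p = 0.461) and at -0.17 without WT chow heart 2 (limma, adjusted p = 0.576), while Psmb8 went from -0.29 to 0.04 and Psmb9 from -0.07 to 0.14. For HFD against chow in WT hearts, Psmb8 went from -0.36 to -0.03, Psmb9 from -0.19 to 0.02 and Psmb10 from -0.38 to 0.00. The median of the 3 in that comparison was -0.36 with the heart and 0.00 without it. In the same heart the mean over 11 genes of MHC class I presentation was 0.48 (at most 0.13 in the others), that of 8 general leukocyte markers 0.36 (at most 0.28, in Clock chow heart 4), that of 11 macrophage markers 0.41 (at most 0.10) and that of 9 T and NK cell markers 0.22 (at most 0.05). The means of the B cell and neutrophil markers were not highest there, at -0.004 and 0.06. They reached 0.11 in WT chow heart 1 and 0.29 in Clock chow heart 4. The part of leukocytes in the immunoproteasome values was not tested.

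**Figure D2:**
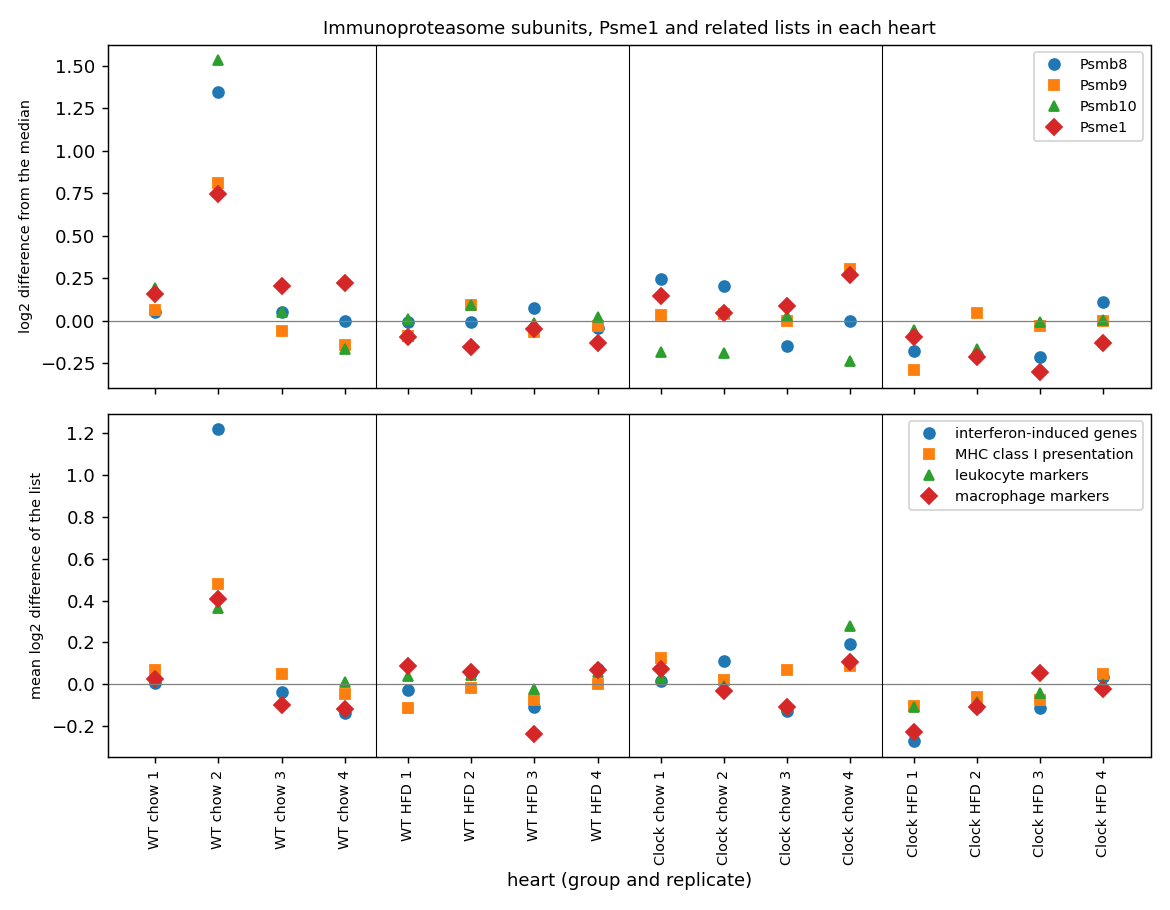
The upper panel plots the log2 difference from the median for Psmb8, Psmb9, Psmb10 and Psme1 in each of the 16 hearts, and the lower panel the mean over 4 gene lists in the same hearts. WT chow heart 2 stands above the other hearts in every series, with 1.53 for Psmb10 and 1.22 for the interferon-induced genes; Psme1 (diamonds, upper panel) lies above 0 in all chow hearts and below 0 in all HFD hearts.

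Psme1 itself fell with HFD when both genotypes were averaged. It was at 0.16, 0.75, 0.20 and 0.23 in the WT chow hearts, -0.10, -0.15, -0.05 and -0.13 in the WT HFD hearts, 0.15, 0.05, 0.09 and 0.27 in the Clock chow hearts, and -0.09, -0.21, -0.30 and -0.13 in the Clock HFD hearts. All 8 chow hearts lay above all 8 HFD hearts. Averaged over the genotypes the difference was -0.38 ± 0.07, a 1.30-fold lower level on HFD (limma, adjusted p = 0.0127). It was the 1 member (2.04%) whose HFD hearts all lay below its chow hearts, a pattern of 0.149% of all genes; no member showed the opposite, as 0.176% of all genes did. Without WT chow heart 2 the difference was -0.31 (limma, adjusted p = 0.00215).

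Within each genotype the diet difference in Psme1 missed the threshold. It was -0.44 ± 0.10 in WT hearts (limma, adjusted p = 0.0720) and -0.32 ± 0.10 in Clock hearts (limma, adjusted p = 0.315), and the interaction was 0.12 ± 0.14 (limma, adjusted p = 0.999). Without WT chow heart 2 the adjusted p was 0.0512 in WT hearts, at a difference of -0.30, and 0.0394 in Clock hearts at the same difference of -0.32. Between genotypes Psme1 was at -0.20 ± 0.10 on chow and -0.08 ± 0.10 on HFD (limma, adjusted p = 0.564 and 0.819). Genes of MHC class I presentation had diet differences of the same sign that did not pass: B2m, the light chain of MHC class I, was at -0.44 ± 0.11 averaged over the genotypes (limma, adjusted p = 0.0703), and Tap1, a peptide transporter encoded beside Psmb9, at -0.32 ± 0.10 (limma, adjusted p = 0.139). Of the 11 presentation genes measured none passed and 2 lay above 0 in that average, and of the 14 interferon-induced genes none passed and 0 lay above 0, with medians of -0.09 and -0.14. The means of both lists were highest in WT chow heart 2, and these counts moved with it. Without that heart 5 of the 14 interferon-induced genes lay above 0 and the median was -0.04, with none past the threshold; of the 11 presentation genes 1 lay above 0, the median was -0.04, and B2m and Tap1 passed as lower on HFD (limma).

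Markers of leukocytes and vessels mostly had diet differences below 0 in that average, apart from the B cell markers. Of 8 general leukocyte markers 1 lay above 0 (median -0.07), of 11 macrophage markers 1 (-0.07) and of 9 T and NK cell markers 1 (-0.05), and none of these passed. Without WT chow heart 2 the counts above 0 were 2, 5 and 4, and the medians -0.03, -0.00 and -0.02. Of 5 B cell markers 3 lay above 0 (median 0.02) and of 6 neutrophil markers 2 (-0.04), with none past the threshold. Both of these counts were the same without that heart. The means over the leukocyte markers ran from -0.11 to 0.36 in the chow hearts and from -0.11 to 0.06 in the HFD hearts. Of 10 endothelial markers Kdr and Emcn passed as lower on HFD and 1 lay above 0 (median -0.08). The fibroblast marker Postn and the cardiomyocyte marker Ryr2 passed as higher on HFD. Of all genes 1.54% passed in that average. Without WT chow heart 2, Kdr, Emcn and Postn still passed and Ryr2 did not. The part of these cells in the diet differences of Psme1 and Psmb1 was not tested.

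The other activators gave smaller differences. Psme2, the beta subunit of PA28 and partner of Psme1 in its ring, was at -0.03, 0.02, 0.20 and 0.11 in WT chow hearts, 0.09, -0.08, -0.44 and 0.13 in WT HFD hearts, -0.22, 0.18, -0.02 and -0.12 in Clock chow hearts, and 0.15, 0.07, -0.10 and -0.13 in Clock HFD hearts. Its groups overlapped, WT chow heart 2 did not stand out, and the diet difference was -0.05 ± 0.08 (limma, adjusted p = 0.877). A further probe set that names Psme2 along with other symbols was left out. Psme4 encodes PA200, a nuclear activator linked to histone degradation. It was at -0.08, -0.10, -0.10 and -0.13 in WT chow hearts and 0.20, 0.01, 0.05 and 0.15 in WT HFD hearts, and at 0.06, -0.06, -0.09 and -0.04 in Clock chow and 0.03, 0.03, -0.01 and 0.11 in Clock HFD hearts. The difference was 0.20 ± 0.05 in WT hearts (limma, adjusted p = 0.0851) and 0.14 ± 0.03 averaged over the genotypes (limma, adjusted p = 0.0567), just outside the threshold. Psme3, which encodes the nuclear activator PA28 gamma, gave differences from -0.03 to 0.11. Psmf1, an inhibitor of the core, gave -0.08 ± 0.05 between the diets in WT hearts and -0.09 ± 0.05 in Clock hearts, without passing.

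In the 19S particle, Psmc4 and Psmd7 passed for the genotype. Psmc4 encodes the ATPase Rpt3. Its values were -0.00, -0.28, -0.10 and -0.06 in WT chow hearts, -0.15, -0.15, -0.43 and -0.03 in WT HFD hearts, 0.07, 0.06, 0.02 and 0.00 in Clock chow hearts and 0.05, 0.17, 0.08 and 0.18 in Clock HFD hearts. All 8 Clock hearts lay above all 8 WT hearts, by a narrow margin on chow. This was the case for 1 member (2.04%) and 0.419% of all genes, and no member had all Clock hearts below all WT hearts, as 0.311% of all genes did. On HFD, Psmc4 in Clock hearts exceeded that in WT hearts by 0.31 ± 0.07, a 1.24-fold difference (limma, adjusted p = 0.0400), and by 0.23 ± 0.05 averaged over the diets (limma, adjusted p = 0.0192). On chow the difference was 0.15 ± 0.07 and did not pass (limma, adjusted p = 0.539), and the interaction was 0.16 ± 0.10 (limma, adjusted p = 0.982).

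The call for Psmc4 on HFD was close to the threshold. In the 25 other settings tried the difference stayed between 0.23 and 0.36, and 11 of the 25 kept the call. Leaving out 1 heart lost it in 11 of 16 cases, with an adjusted p up to 0.117, among them each Clock HFD heart, WT HFD hearts 1, 2 and 3, Clock chow hearts 1, 2 and 3 and WT chow heart 3. The average over the diets kept its call in all 16 leave-outs (limma, adjusted p up to 0.0441) and lost it without WT chow hearts 2 and 4 together, at 0.20 (limma, adjusted p = 0.0802).

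Psmd7 encodes Rpn8, the partner of the deubiquitinase Rpn11 in the lid. It was at -0.06, -0.07, -0.06 and -0.16 in WT chow hearts, -0.08, -0.02, -0.07 and 0.01 in WT HFD hearts, 0.09, 0.08, 0.07 and -0.01 in Clock chow hearts and 0.04, 0.08, 0.15 and 0.02 in Clock HFD hearts. Clock and WT hearts did not overlap on HFD, as for 5.09% of all genes with Clock higher. They did not overlap on chow either, where the share of all genes was not counted. Averaged over the diets Psmd7 was higher in Clock hearts by 0.13 ± 0.03, a 1.09-fold difference (limma, adjusted p = 0.0253). Each diet alone gave 0.14 ± 0.04 on chow and 0.11 ± 0.04 on HFD, without passing (limma, adjusted p = 0.202 and 0.240). The average lost its call in 8 of 16 leave-outs, Clock HFD hearts 2 and 3, Clock chow hearts 1, 2 and 3, WT HFD hearts 1 and 3 and WT chow heart 4, where the adjusted p was at most 0.0548. Without WT chow hearts 2 and 4 together it was 0.113.

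**Figure D3:**
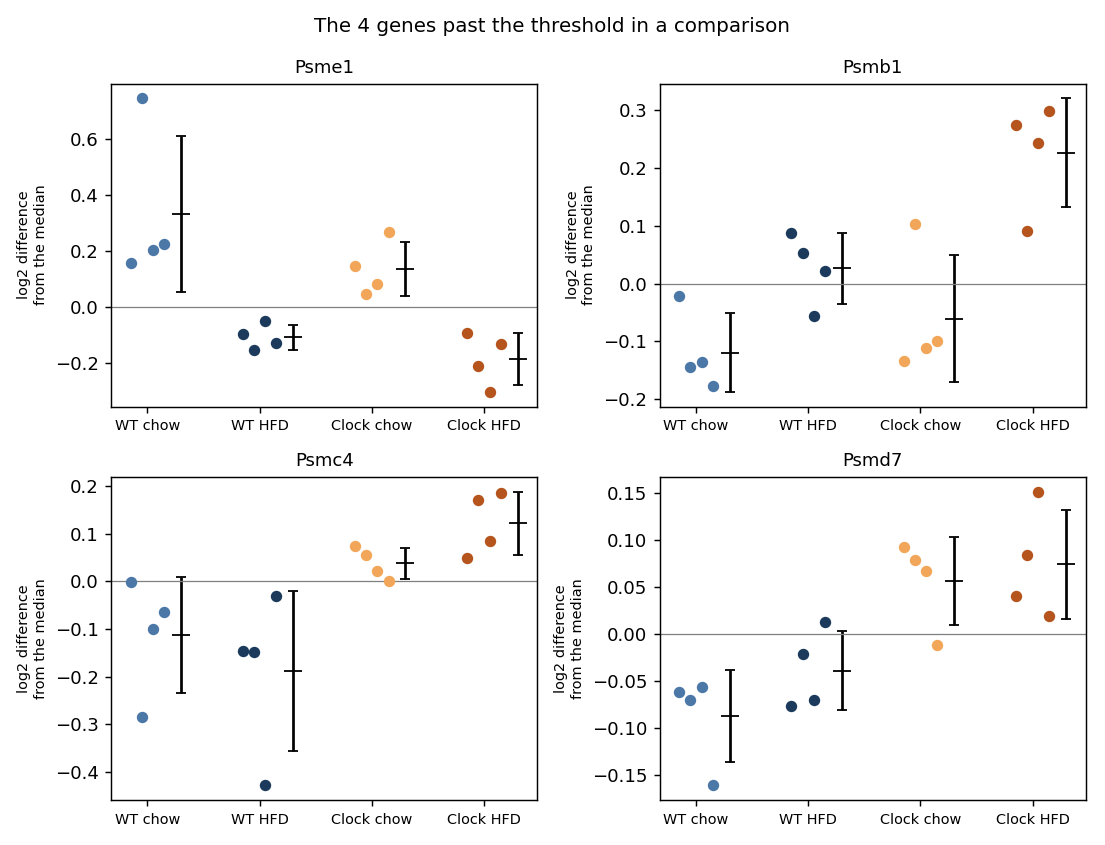
The 4 panels show the 4 genes past the threshold in a comparison, with 1 point per heart on a log2 scale and the mean ± SD of each group of 4 beside the points. Psme1 separates the diets, with chow means of 0.33 and 0.14 and HFD means of -0.11 and -0.18; Psmb1 is highest in Clock HFD hearts (mean 0.23), and Psmc4 and Psmd7 are higher in both Clock groups than in both WT groups.

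The other 19S genes were mostly highest in Clock HFD hearts, without passing singly. Psmc5, the ATPase Rpt6, was at -0.08, -0.09, -0.16 and -0.30 in WT chow hearts, 0.04, -0.18, 0.02 and -0.01 in WT HFD hearts, 0.02, 0.01, -0.10 and -0.17 in Clock chow hearts and 0.10, 0.09, 0.19 and 0.19 in Clock HFD hearts, which lay above all the others. Its difference was 0.18 ± 0.06 for Clock against WT on HFD (limma, adjusted p = 0.198) and 0.20 ± 0.06 for HFD against chow in Clock hearts (limma, adjusted p = 0.323). Psmd1, the large scaffold subunit Rpn2 of the base, was at 0.16, 0.15, 0.09 and 0.29 in Clock HFD hearts and at most 0.08 elsewhere, and gave 0.17 ± 0.06 and 0.20 ± 0.06 (limma, adjusted p = 0.218 and 0.324). Psmd3, the lid subunit Rpn3, was at 0.14, 0.14, 0.12 and 0.27 in Clock HFD hearts and at most 0.10 elsewhere, and gave 0.22 ± 0.09 in each comparison (limma, adjusted p = 0.243 and 0.468). Psmc1, the ATPase Rpt2, differed by 0.18 ± 0.06 between the diets in Clock hearts (limma, adjusted p = 0.353) and by 0.12 ± 0.06 between the genotypes on HFD (limma, adjusted p = 0.378). Psmd6, the lid subunit Rpn7, had its largest difference between the diets in WT hearts, 0.18 ± 0.06 (limma, adjusted p = 0.222). Both comparisons named for these genes use the same Clock HFD hearts, so they are not independent. The share of all genes with every Clock HFD heart above all the others was not counted.

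As a group, the 17 genes of the 19S particle had small differences on 1 side of 0. Clock hearts on HFD differed from WT hearts on HFD by a median of 0.12, with 15 of 17 above 0. In Clock hearts HFD differed from chow by a median of 0.13, with 17 of 17 above 0. The other comparisons gave medians of 0.04 for the genotype on chow (16 of 17 above 0) and 0.04 for the diet in WT hearts (12 of 17). Between 48.8% and 50.2% of all genes lay above 0 in these comparisons. For Clock against WT on HFD, 9 of the 17 had an unadjusted p under 0.05 with Clock higher, of 12 among the 49 members (24.5%), where 7.6% of all genes did. For HFD against chow in Clock hearts it was 7 of the 17, of 10 members (20.4%), where 4.63% of all genes did. Genes of 1 complex can vary together between hearts, so these counts are a description and carry no test.

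The same hearts stood apart when the groups were compared without a model. In the HFD hearts, all 4 Clock values lay above all 4 WT values for 7 members (14.3%): Psmb1, Psmb7, Psmc4, Psmc5, Psmd1, Psmd3 and Psmd7; 5.09% of all genes did so. The opposite held for 1 member, Psmc3ip (2.04%), and for 3.8% of all genes. In the Clock hearts, all 4 HFD values lay above all 4 chow values for 7 members (14.3%): Psmb7, Psmc1, Psmc5, Psmd1, Psmd3, Psmd8 and Psmd11; 2.89% of all genes did so. The opposite held for Psme1 alone (2.04%) and for 2.42% of all genes.

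**Figure D4:**
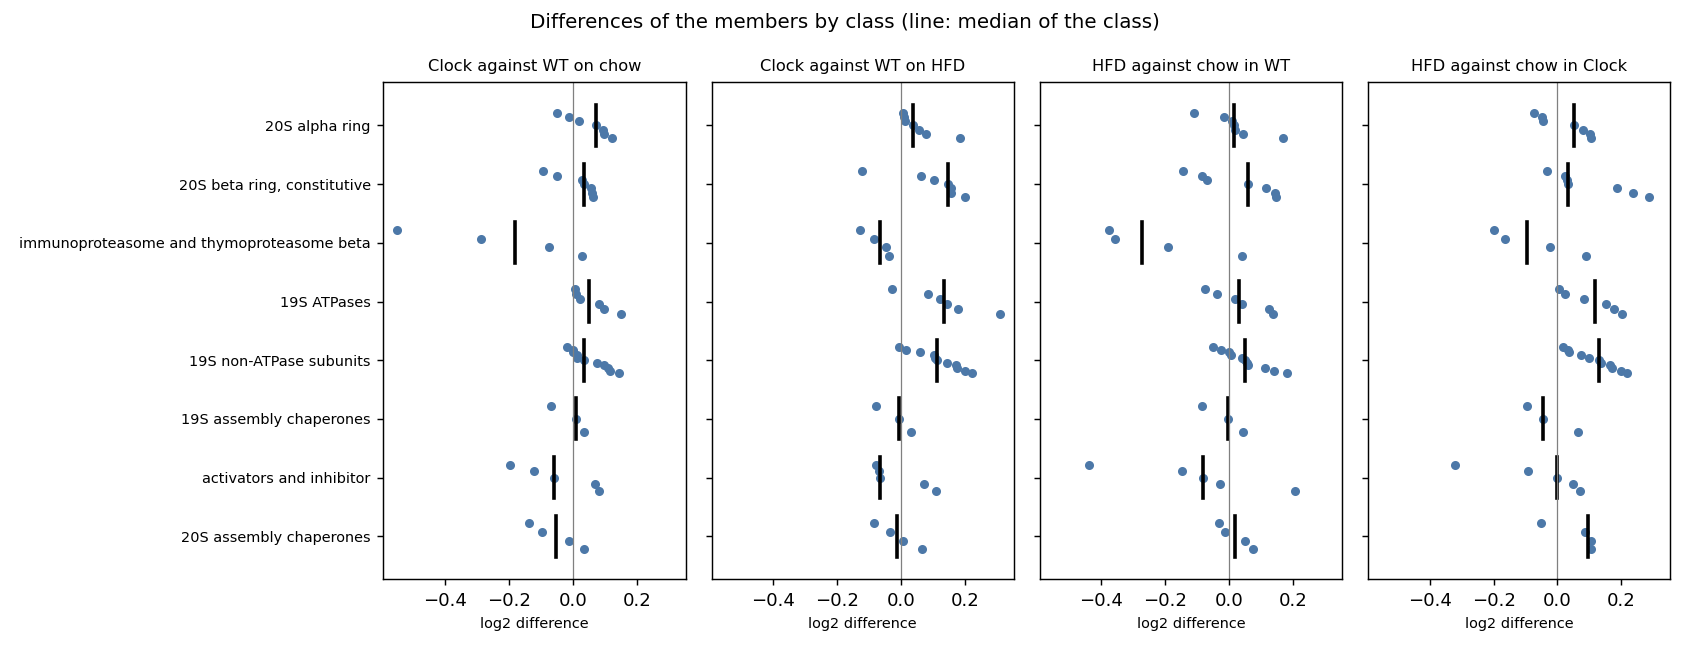
Each point is the log2 difference of 1 gene in 1 of the 4 comparisons of 2 groups, in rows by class, and the black line is the median of the class. The 11 non-ATPase subunits of the 19S particle lie above 0 for HFD against chow in Clock hearts (median 0.13), while the immunoproteasome and thymoproteasome row has medians of -0.18 and -0.27 in the comparisons that use WT chow hearts.

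The mean over the genes of a class gives the same picture by heart. How often the Clock HFD hearts stand above all others in means of other gene sets was not counted. Over the 17 genes of the 19S particle the Clock HFD hearts had 0.10, 0.09, 0.09 and 0.12, and the other 12 hearts lay between -0.14 and 0.04. The WT chow hearts had a mean of -0.07 (SD 0.05), the WT HFD hearts -0.02 (SD 0.06), the Clock chow hearts -0.01 (SD 0.05) and the Clock HFD hearts 0.10 (SD 0.02). Over the 7 constitutive beta subunits the Clock HFD hearts had 0.07, 0.08, 0.04 and 0.11 and the others at most 0.04, and over the 7 alpha subunits 0.02, 0.03, 0.05 and 0.03, within the range of the others (-0.09 to 0.07). The interaction of genotype and diet called no gene of these classes, and its unadjusted p was under 0.05 for none of them, so a larger diet difference in Clock than in WT hearts was not shown for any single subunit.

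**Figure D5:**
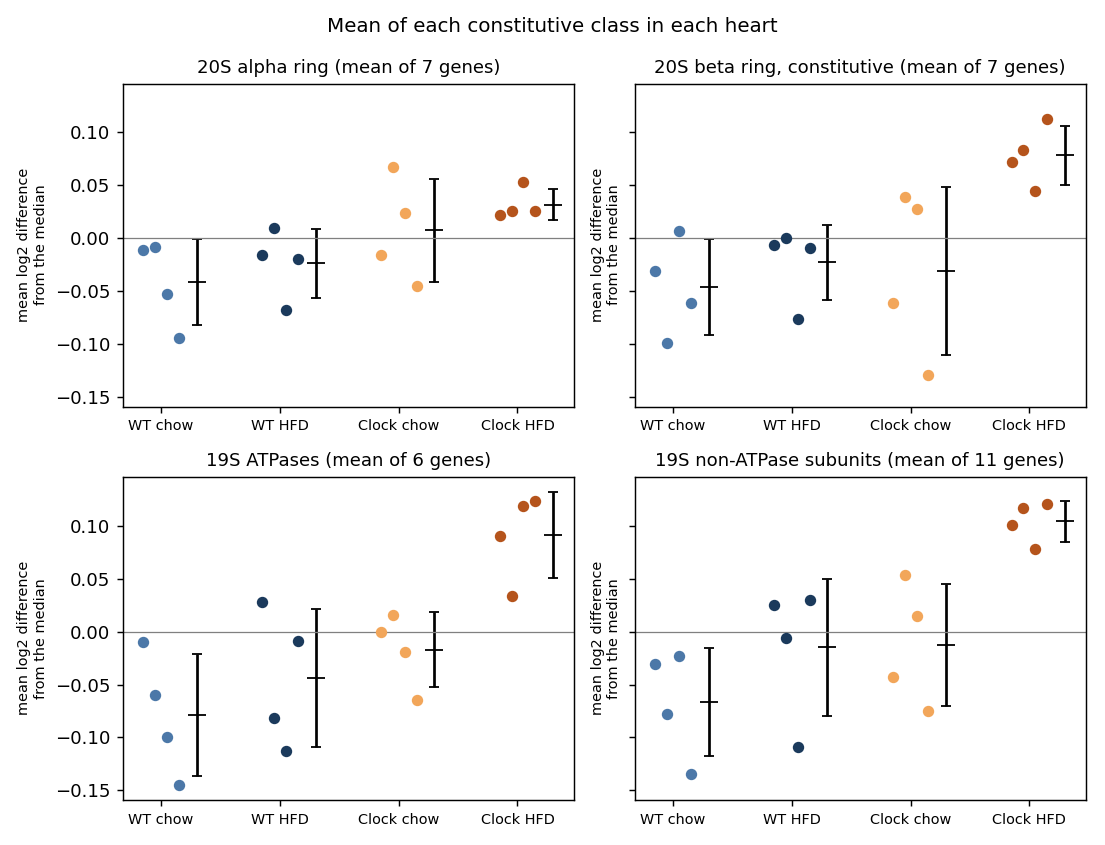
Each point is the mean log2 difference from the median over the genes of a class in 1 heart, with the mean ± SD of the 4 hearts of a group beside it. In both 19S panels and in the constitutive beta ring the 4 Clock HFD hearts lie above the other 12; in the alpha ring they do not.

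The assembly factors and the thymus subunit showed no difference past the threshold. Psmd5, Psmd9 and Psmd10 are chaperones of the 19S base that leave before the particle is complete, and their differences lay between -0.10 and 0.06. Psmd5 was at -0.46 in WT HFD heart 1 and from 0.05 to 0.19 in the other WT HFD hearts. Psmg1 to Psmg4 are chaperones that build the alpha ring, and their differences lay between -0.14 and 0.10. Psmg3 ran from -0.29 to -0.00 in Clock chow hearts and from 0.00 to 0.11 in WT chow hearts, with a difference of -0.14 ± 0.09 (limma, adjusted p = 0.678). Psmb11, the catalytic subunit of the thymoproteasome, gave differences between -0.04 and 0.04. Of the 2 genes that are no subunit, Psmc3ip, a factor of meiotic recombination, was at -0.09 to -0.01 in Clock HFD and 0.00 to 0.20 in WT HFD hearts (-0.12 ± 0.06; limma, adjusted p = 0.360), and it was the 1 member with an unadjusted p under 0.05 for the interaction (-0.21 ± 0.08; limma, adjusted p = 0.934). Psme3ip1, a protein that binds PA28 gamma, gave differences between -0.04 and 0.03. Of the 3 members read by more than 1 probe set (Psma5, Psmc2 and Psmg2), Psmc2 gave 0.14 and 0.15 for Clock against WT on HFD on its 2 probe sets.

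Genes that work with the proteasome but carry other names were read beside the members, from a list of 18 of which 15 were measured. Ufd1 and Ubqln4 passed in more than 1 comparison. Ufd1, a cofactor of the segregase VCP that hands ubiquitinated proteins on, was at 0.00, 0.06, 0.05 and -0.02 in WT chow hearts, -0.20, -0.18, -0.14 and -0.19 in WT HFD hearts, 0.06, 0.12, 0.14 and 0.13 in Clock chow hearts and 0.07, -0.00, -0.07 and -0.05 in Clock HFD hearts. It fell by 0.20 ± 0.04 with HFD in WT hearts (limma, adjusted p = 0.0453), and on HFD its level in Clock hearts exceeded that in WT hearts by 0.16 ± 0.04 (limma, adjusted p = 0.0496). Ubqln4, a shuttle that carries ubiquitinated proteins to the proteasome, was at -0.09, -0.37, -0.18 and -0.28 in WT chow hearts and 0.20, 0.37, 0.23 and 0.24 in Clock HFD hearts. Between them, Ubqln4 ran from -0.09 to 0.19 in WT HFD hearts and from -0.02 to 0.11 in Clock chow hearts, which overlapped. It was higher in Clock hearts by 0.26 ± 0.05 averaged over the diets (limma, adjusted p = 0.00402) and higher on HFD by 0.23 ± 0.05 averaged over the genotypes (limma, adjusted p = 0.0259). Ubqln1, a related shuttle, was higher in Clock hearts by 0.14 ± 0.04 averaged over the diets (limma, adjusted p = 0.0450). Genotype averaged over the diets thus called 3 of the 15, all higher in Clock hearts, where 3.88% of all genes were called. The median of the 15 was 0.07. Without WT chow heart 2, Ufd1 passed neither for HFD against chow in WT hearts nor for Clock against WT on HFD. The genotype average then called 2, Ubqln4 and Ufd1.

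The remaining lists around the proteasome held few calls. None of 9 genes of the NRF1 pathway, which induces proteasome genes when the proteasome is impaired, passed in any comparison. Nfe2l1, which encodes NRF1, differed by 0.19 ± 0.05 between the diets averaged over the genotypes (limma, adjusted p = 0.0532). None of 15 ubiquitin ligases of heart and muscle passed: Trim63, which encodes the ligase MuRF1, gave 0.26 ± 0.08 for the genotype averaged over the diets (limma, adjusted p = 0.0962). Of 14 heat shock genes, Hsph1 and Hsp90aa1, chaperones of the cytosol, were higher in Clock than in WT hearts on HFD by 0.66 ± 0.15 and 0.48 ± 0.12 (limma, adjusted p = 0.0293 and 0.0483). Of all genes 1.9% passed in that comparison. Both genes also passed as higher for the genotype averaged over the diets. Hspd1 and Hspb1 passed for the diet averaged over the genotypes, 1 higher and 1 lower on HFD. With WT chow heart 2 left out, Hsp90aa1 did not pass on HFD and Hsph1 did not pass for the genotype average. The mean over the 14 heat shock genes was 0.29, 0.64, 0.23 and -0.00 in the Clock HFD hearts and -0.29 to -0.04 in the WT HFD hearts. In the same Clock HFD hearts the 19S mean was 0.10, 0.09, 0.09 and 0.12. In the Clock chow hearts the heat shock mean was 0.005, 0.085, 0.547 and 0.051, and the 19S mean -0.028, 0.04, 0.003 and -0.072. Both group means were highest in Clock HFD hearts, at 0.29 and 0.10. The part of the heat shock genes in the 19S difference was not tested.

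Markers of the cell types in the heart also moved with the genotype. Of 10 endothelial markers 3 passed for Clock against WT on HFD, all higher (Cldn5, Esam and Robo4), and 8 of 10 lay above 0, with list means of -0.03 to 0.15 in the Clock HFD hearts and -0.26 to -0.18 in the WT HFD hearts. Of 8 fibroblast markers none passed in that comparison, and 4 passed for the genotype averaged over the diets, all higher (Gsn, Col1a1, Lum and Postn). For the genotype averaged over the diets, where Psmc4 and Psmd7 passed, 5 of the 10 endothelial markers passed as higher (Cldn5, Robo4, Esam, Pecam1 and Tek), with a median of 0.20 over the list. Of all genes 1.9% passed for Clock against WT on HFD and 3.88% for the genotype averaged over the diets. In that average the cardiomyocyte markers Ryr2 and Myom1 also passed as higher, and 9 of 10 lay above 0 with a median of 0.04. Without WT chow heart 2 that average called Cldn5, Robo4 and Esam among the endothelial and Gsn, Postn and Col1a1 among the fibroblast markers. Of the cardiomyocyte markers it then called Ryr2 alone. Of 10 cardiomyocyte markers none passed on HFD and 9 lay above 0, with list means of 0.02 to 0.09 in the Clock HFD hearts and -0.06 to -0.01 in the WT HFD hearts. Without WT chow heart 2, Myom1 passed as higher for Clock against WT on HFD. For HFD against chow in Clock hearts, where the 19S genes also lay above 0, no endothelial, fibroblast or cardiomyocyte marker passed and the medians were -0.04, 0.05 and 0.03. In that comparison 0.0902% of all genes passed, and no 19S gene did. The part of the cell mix in the differences of the members was not tested.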

How the data were processed

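RNA from the myocardium of 16 mice was read on 1 Affymetrix array per mouse, from 500 ng of total RNA, 4 mice in each of 4 groups. The deposited values are log2 differences: every probe set has a median of 0 over the 16 arrays, so the authors had centred it. That leaves neither a signal level nor a background, and a filter on dim genes could not be run. The log base (taken as 2), the sign (a positive value taken as a higher level), the software and the normalization are not stated: not given in the sources used here. Of 34351 probe sets, 23521 carry 1 gene symbol and gave 22180 genes, with the probe sets of a gene averaged.

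The fit used limma 3.58.1 under R 4.3.3, with lmFit, eBayes and two-sided tests. It had a mean for each group, 12 residual degrees of freedom and 4.16 prior ones, and gave 7 comparisons. Benjamini-Hochberg adjustment ran over all 22180 genes. The number of arrays limits precision. Class medians, list means and counts of groups that do not overlap are descriptions with no test. The labels give no pairing of the mice by number, and the main fit used none. Deviations of same-numbered hearts correlated between -0.15 and 0.16, and those of other hearts between -0.20 and 0.21. Such correlations cannot exclude a pairing.

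The members, classes and lists were chosen with earlier results of these data known. The text names the catalytic pairs, the activators and Psmf1, every member past the threshold, and in each class the 2 members with the smallest p in the genotype and diet comparisons. Psma5, Psmb4, Psmc2, Psmd2, Psmd4, Psmd8, Psmd11, Psmg4, Tap1, B2m, Nfe2l1 and Trim63 are outside that rule and were named after their values were seen. Left out were 4 probe sets that name a member beside other genes. Other settings were array weights, robust eBayes, centred arrays, a repeated quantile normalization, 1 probe set per gene, all probe sets singly, a fit of the compared groups alone, the replicate number as a block, and 1 heart left out at a time.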

Additional observations from a re-analysis of the deposited data

Results flagged for a closer look

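In each group of 4 hearts the highest and the lowest value were compared with the other values of the group. Of 188 groups examined (33 genes taken by the naming rule and 14 class means, in 4 groups each), 19 held a value whose gap to its nearest neighbour was above Dixon's critical value of 0.829 of the range, and chance alone gives about 1 in 20 groups.

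WT chow heart 2 held 5 of these. It was at 1.35 for Psmb8 and 0.75 for Psme1, 0.89 for the mean of the immunoproteasome and thymoproteasome subunits, 1.23 for the mean of Psmb8, Psmb9 and Psmb10, and 0.14 for the mean of the activators and inhibitor. WT chow heart 4 was lowest of its group for Psmd7 (-0.16) and Psme3 (-0.14).

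In Clock chow hearts, heart 2 was apart with 0.10 for Psmb1 and with -0.29 for Psmg3, and heart 4 with 0.31 for Psmb9. In Clock HFD hearts, heart 4 was apart with 0.11 for Psmb8, 0.27 for Psmd3 and 0.001 for Psmf1, heart 2 with 0.23 for Psmd6, and heart 3 with 0.053 for the mean of the alpha ring. In WT HFD hearts, heart 2 was apart with -0.14 for Psmb5, heart 3 with -0.10 for Psmd6 and -0.076 for the mean of the constitutive beta ring, and heart 1 with -0.27 for the mean of the 19S assembly chaperones.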

How the results depend on the processing

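Counts of members past the threshold moved by at most 2 under the settings tried. For Clock against WT on HFD the count fell from 1 to 0 with only the arrays compared and with all probe sets singly, and ranged from 0 to 1 with 1 heart left out. For HFD against chow in WT hearts it went from 0 to 1 with a repeated quantile normalization, where Psme1 passed. For HFD against chow in Clock hearts it ranged from 0 to 1 with 1 heart left out, and was 1 without WT chow hearts 2 and 4 together, a setting chosen after seeing the data. Genotype averaged over the diets gave 1 to 2 with 1 heart left out and 0 without both of those hearts, and diet averaged over the genotypes 2 to 4 with 1 heart left out. The 4 came without WT chow heart 1, WT HFD heart 2 or WT HFD heart 3. Psme1 kept its diet call in all 24 settings, between -0.41 and -0.30. No called difference changed sign.

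With the replicate number as a block the count for Clock against WT on HFD was 0 (Psmc4, limma, adjusted p = 0.0543), and no other count of members changed. The labels give no pairing of the hearts by number. Correlations of deviations had a median of -0.02 for same-numbered and 0.00 for other hearts, which does not exclude a pairing.

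The values hold no signal over background, so how dim a probe set is cannot be known. With 4 hearts per group and differences of 0.1 to 0.3, a missed threshold does not show that a subunit was unaffected.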

Other observations

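Across the 16 hearts the highest value of a member lay most often in Clock HFD heart 3 (6 of 49 members, among them Psmb5, Psmc5 and Psmd7), while WT HFD heart 3 held no highest value. The lowest value of a member lay most often in WT chow heart 4 (8 of 49) and Clock chow heart 4 (6 of 49). WT chow heart 2 held 4 highest values and 0 lowest.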
